A study of Mus musculus with 8 samples.

Results

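This report describes 10 genes that mark T cells, Cd3e, Cd3d, Cd3g, Cd4, Cd8a, Lck, Cd28, Thy1, Icos and Lat, in neutrophil preparations from mouse lungs. They were taken as a list of common markers, and each was read from the row of the expression table whose RefSeq identifier belongs to that symbol. All 10 had exactly 1 row, among 19836 symbols and 24625 rows in all. The samples came from wild type mice aged 6 to 12 weeks by the labels, where the methods give a narrower span within it. The methods name C57BL/6J females as the animals bought to found the colonies and call the studied mice age- and sex-matched. Each mouse had its left lung instilled by the trachea with either the pneumonia bacterium Streptococcus pneumoniae (SP) or saline buffered with phosphate (PBS), in a volume of 2.3 µl per g. At 24 h, lungs were flushed, digested to single cells and freed of red cells, and neutrophils were selected with magnetic beads that bind Ly6G on their surface. T cells were thus not the cells selected. Neutrophil purity was examined by the authors in stained preparations from SP mice, and the methods describe no such examination of PBS preparations. In the SP preparations they report few other cells, which mostly looked like alveolar macrophages and rarely like eosinophils. They also report high Ly6G mRNA in all samples. There were 4 arrays per group, named here by group and replicate number. The labels do not say whether each array is a different mouse. The study describes each of its mRNA samples as taken from a mouse, with 4 in each group. The p-values measure the spread between these samples.

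T cells recognise antigen through a receptor whose signal is carried by the CD3 chains. The coreceptors CD4 and CD8 bind class II and class I molecules of the major histocompatibility complex and bring the kinase Lck to the receptor, and Lck phosphorylates the CD3 chains. The kinase Zap70 then phosphorylates Lat, a membrane adaptor on which further signalling proteins assemble. CD28 and ICOS are costimulatory receptors for ligands on antigen-presenting cells, and Thy1 is a lipid-anchored surface protein that marks T cells in the mouse and is also found on some stromal and innate lymphoid cells. The lung holds resident as well as circulating T cells.

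Cd3g, Cd3d and Cd3e lie next to each other on chromosome 9. In the RefSeq annotation of GRCm38.p6 the start sites of Cd3g and Cd3d, which are read in opposite directions, are 1355 bases apart, and that of Cd3e is 27825 bases beyond Cd3d. The promoter windows of these neighbours (250 bases before to 50 after the start site, 5′ to 3′ on the gene's strand) are shown as a description. A link between these sequences and the array values was not tested. Capitals mark the letters GGAAG (an ETS core) and CANNTG (an E-box), searched on both strands together with TGTGGT (a RUNX core).
Cd3g, chr9:44980382-44980681, minus strand: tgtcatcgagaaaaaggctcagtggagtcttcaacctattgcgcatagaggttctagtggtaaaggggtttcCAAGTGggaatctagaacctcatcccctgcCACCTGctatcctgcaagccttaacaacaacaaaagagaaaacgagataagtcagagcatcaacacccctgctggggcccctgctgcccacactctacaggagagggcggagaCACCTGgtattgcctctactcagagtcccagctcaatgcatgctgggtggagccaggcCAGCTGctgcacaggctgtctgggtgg
Cd3d, chr9:44981536-44981835, plus strand: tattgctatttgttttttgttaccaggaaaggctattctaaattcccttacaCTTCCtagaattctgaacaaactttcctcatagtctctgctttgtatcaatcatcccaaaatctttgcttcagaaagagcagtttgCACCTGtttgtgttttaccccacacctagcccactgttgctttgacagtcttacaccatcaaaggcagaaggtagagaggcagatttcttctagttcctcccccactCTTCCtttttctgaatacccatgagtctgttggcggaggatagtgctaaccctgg
Cd3e, chr9:45009562-45009861, minus strand: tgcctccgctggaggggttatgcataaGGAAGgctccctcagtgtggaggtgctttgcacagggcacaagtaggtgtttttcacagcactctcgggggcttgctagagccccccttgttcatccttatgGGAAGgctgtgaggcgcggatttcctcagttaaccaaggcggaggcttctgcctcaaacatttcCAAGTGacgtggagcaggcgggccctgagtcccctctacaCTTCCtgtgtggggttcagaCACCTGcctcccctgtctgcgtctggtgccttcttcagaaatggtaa
The Cd3g window held 4 E-boxes and 0 ETS cores, the Cd3d window 1 and 2, and the Cd3e window 2 and 3. None of the windows held a RUNX core, and no matches shared bases. Of all 32851 windows of this length, 71.4% held an ETS core, 72.3% an E-box and 16.8% a RUNX core, so these letters are common and describe the windows only. Of the 10 markers, 6 had a window in the table used.

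Values were log2 expression values after robust multi-array averaging (RMA), in which a difference of 1 is a 2-fold change. Groups were compared with limma, a linear model over all 24625 rows, and a row was called where the p adjusted by Benjamini-Hochberg reached 0.05 or less. A single marker of 10 was called, Cd3d, which was higher in SP, and no marker was called lower. This count was 5 when arrays were centred on their medians, 6 with array weights, 3 without SP replicate 3 and 0 without PBS replicate 1 or 2, and all these calls were higher in SP. Over all rows 44.1% were called, 21.5% higher and 22.6% lower in SP. The median difference (SP minus PBS) over the 10 markers was 0.36 log2 units, against 0.10 over all rows, and 8 of 10 differences were positive. Cd3d was also the only marker for which all SP values lay above all PBS values, an arrangement found in 27.2% of all rows. In such bulk preparations, a change in the number of cells of a type and a change in RNA per cell cannot be told apart.

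Most of the spread in these markers lay between arrays of the same group. SP replicates 1 and 2 had high values of most T cell markers, and SP replicates 3 and 4 did not. SP replicate 2 exceeded every PBS value in 9 of 10 markers and SP replicate 1 in 8, whereas SP replicate 4 did so in 2 and SP replicate 3 in 1. Within SP, replicate 2 was the highest array in 9 markers and replicate 3 the lowest in 7. Within PBS, replicate 1 was the highest in 9 markers, all but Cd3d, and replicate 2 the lowest in 6. The mean of the 10 markers per array was 6.54 and 6.74 in SP replicates 1 and 2 and 5.63 and 5.71 in SP replicates 3 and 4. It was 6.13 in PBS replicate 1 and between 5.55 and 5.68 on the other PBS arrays.

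**Figure D1:**
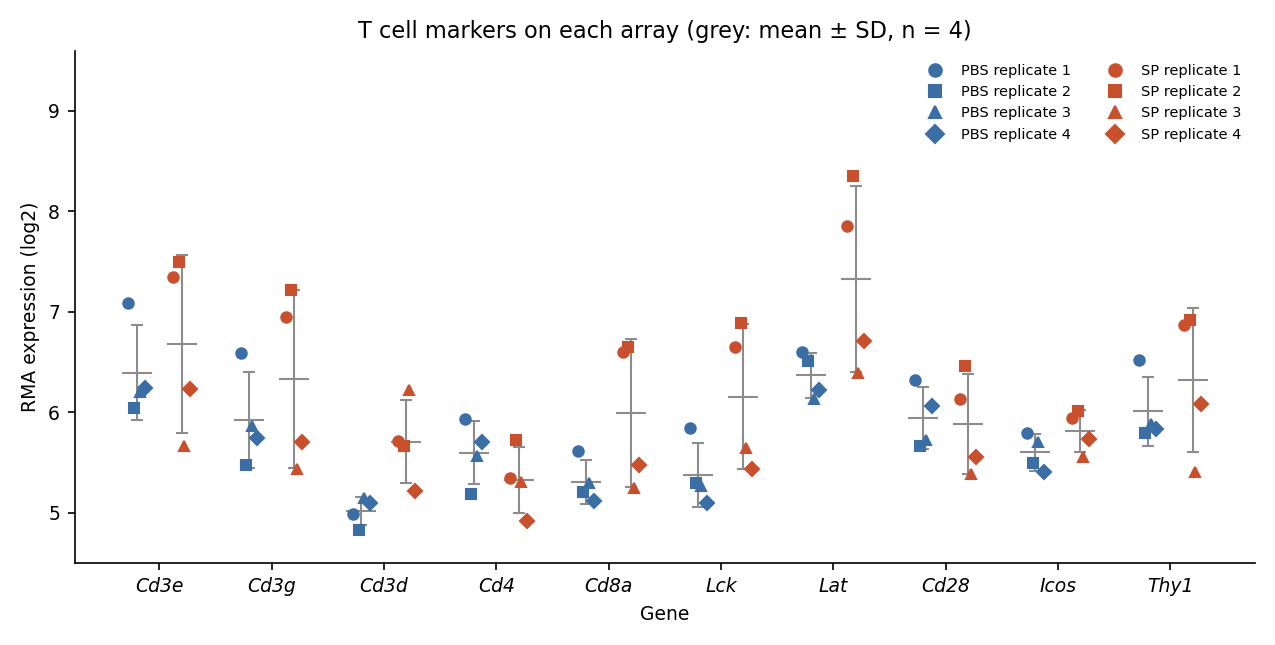
RMA expression (log2) of the 10 T cell markers on each array, with PBS arrays in blue, SP arrays in red, a marker shape for each replicate number and the group mean ± SD (n = 4) in grey. SP replicates 1 and 2 (circle and square) sit at the top of most SP groups, as in Lat at 7.86 and 8.35, while SP replicate 3 (triangle) is the highest SP array in Cd3d at 6.22.

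Whole arrays were also examined. Array medians lay between 6.06 and 6.20 in PBS and between 5.78 and 5.91 in SP, a mean shift of -0.28, so differences of about that size can change with the scaling of the arrays. The mean correlation of an array with the others of its group, across rows, was lowest for SP replicate 3 (0.973) and from 0.983 to 0.991 for the other arrays. The Y-linked genes Ddx3y, Kdm5d and Uty read between 4.33 and 4.90 on all arrays and are given as a reference for dim probes. Of these 3 genes 1, Kdm5d, was called higher in SP (0.19, adjusted p = 0.0497), and their median difference was 0.18. Values of the 10 markers ran from 4.83 to 8.35. Neutrophil markers were bright on all arrays, and the mean of 10 genes was 12.33 ± 0.22 for PBS and 12.25 ± 0.33 for SP (SD, n = 4).

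The CD3 chains were examined first. CD3 epsilon (Cd3e, NM_007648) read 7.09, 6.04, 6.20 and 6.24 in PBS replicates 1 to 4 and 7.34, 7.50, 5.66 and 6.23 in SP replicates 1 to 4. PBS replicate 1 therefore lay close to the high SP arrays, and the lowest of the 8 values was in SP. CD3 gamma (Cd3g, NM_009850) read 6.59, 5.47, 5.86 and 5.74 in PBS and 6.95, 7.22, 5.44 and 5.71 in SP. Its arrays were ordered much like those of Cd3e, and the within-array difference of the pair stayed between 0.23 and 0.57 log2 units on all 8 arrays. Neither chain was called, with differences of 0.29 (95% confidence interval -0.70 to 1.27, adjusted p = 0.580 by limma) for Cd3e and 0.41 (-0.58 to 1.40, adjusted p = 0.437) for Cd3g. These intervals include a 2-fold rise, so a change of that size is not excluded for either gene. Without SP replicate 3 the difference was 0.63 for Cd3e and 0.71 for Cd3g, and neither was called.

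CD3 delta (Cd3d, NM_013487) had another order of arrays than its neighbours. It read 4.99, 4.83, 5.14 and 5.10 in PBS and 5.71, 5.67, 6.22 and 5.22 in SP. All SP values lay above all PBS values, and the highest was in SP replicate 3, where Cd3e and Cd3g were lowest. The difference was 0.69 log2 units (1.62-fold, 95% confidence interval 0.25 to 1.14, adjusted p = 0.0209 by limma), below 2-fold. The call was narrow, since it was lost without PBS replicate 1 (0.68, adjusted p = 0.0524) and without PBS replicate 2 (0.63, 0.0535). Over the 15 alternatives that tested it, the adjusted p ranged from 0.00336 to 0.0535, and the filter on dim rows removed it. The value of PBS replicate 2 (4.83) lay below the highest value of the Y-linked genes (4.90), and how much of its signal is background was not tested. The within-array difference of Cd3e minus Cd3d was 2.10, 1.22, 1.06 and 1.14 in PBS and 1.63, 1.83, -0.56 and 1.01 in SP, and its mean changed by -0.40 (exact permutation test over 70 arrangements, two-sided, p = 0.657, adjusted over 6 pairs 0.657). Only in SP replicate 3 was this difference below 0.

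The mean differences of the coreceptors had opposite signs, and neither was called. Cd4 (NM_013488), on helper and regulatory T cells, read 5.93, 5.19, 5.56 and 5.70 in PBS and 5.35, 5.72, 5.31 and 4.92 in SP. The groups overlapped, and the lowest value was in SP replicate 4. Its difference was -0.27 (95% confidence interval -0.74 to 0.19, adjusted p = 0.274 by limma), and it turned to 0.0067 when each array was centred on its median. Cd8a (NM_001081110), on cytotoxic T cells, read 5.62, 5.20, 5.29 and 5.12 in PBS and 6.60, 6.65, 5.24 and 5.47 in SP. SP replicates 1 and 2 lay about 1 log2 unit above every PBS array, and SP replicates 3 and 4 lay within the PBS range. The difference of 0.68 (-0.08 to 1.44) was not called (adjusted p = 0.120 by limma). It was called without SP replicate 3 (0.93, adjusted p = 0.0367), with centred arrays (0.96, 0.0190) and with array weights, which give less weight to arrays that scatter more (1.08, 0.00581).

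The difference of Cd4 minus Cd8a within an array does not depend on how the arrays are centred. It was 0.32, -0.01, 0.27 and 0.58 in PBS and -1.25, -0.93, 0.07 and -0.56 in SP. The mean changed from 0.29 ± 0.24 to -0.67 ± 0.56 (SD, n = 4), a change of -0.96, and 3 SP arrays lay below all PBS arrays. An exact permutation test over 70 arrangements gave p = 0.0571, and 0.343 after adjustment over the 6 pairs of markers compared, where the smallest possible exact p is 0.0286. A single pair at that smallest p would have an adjusted p of 0.171, so this design could not call 1 pair alone, and the adjusted values say nothing for or against an unequal change. The exact p was from 0.229 to 0.657 for Cd3e minus Cd3g, Cd3d minus Cd3g, Cd28 minus Icos and Lck minus Lat.

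The proximal signalling genes had the largest mean differences of the 10 markers, with no call. Lck (NM_001162432), the kinase of the coreceptors, read 5.84, 5.30, 5.26 and 5.10 in PBS and 6.65, 6.89, 5.64 and 5.43 in SP. SP replicates 1 and 2 lay above all PBS values, and the other SP arrays lay between PBS replicates 1 and 2. The difference was 0.78 (95% confidence interval -0.00 to 1.56, adjusted p = 0.0923 by limma). Lat (NM_010689), the adaptor, read 6.60, 6.51, 6.14 and 6.22 in PBS and 7.86, 8.35, 6.39 and 6.71 in SP. Only SP replicate 3 overlapped the PBS arrays. The difference of 0.96 (1.95-fold, 0.03 to 1.90) had an unadjusted p of 0.0453 and an adjusted p of 0.0847, and so was not called. Both genes were called with centred arrays (1.06 and 1.24 log2 units) and with array weights (1.15 and 1.44). Lat was called after another quantile normalization (1.32, adjusted p = 0.0165) and without SP replicate 3 (1.27, 0.0245), and Lck without SP replicate 4 (1.02, 0.0345). Lat also encodes a protein of platelets, mast cells and NK cells. Of 7 platelet markers with a row 0 were called higher and 2 lower, against 21.5% and 22.6% of all rows. The platelet tubulin Tubb1 was highest in the same SP arrays as Lat and was not called. It read 8.06, 8.25, 6.67 and 7.20 in SP and 6.04 to 7.75 in PBS. The mean of the 7 platelet markers did not share this order. It was 6.17, 6.27, 6.25 and 6.45 in SP replicates 1 to 4, highest in replicate 4. Of 7 mast cell and basophil markers 2 were called lower and 1 higher, against 22.6% and 21.5% of all rows. The higher gene was Tpsb2, whose group means of 4.67 (PBS) and 4.95 (SP) lay near the Y-linked genes. Of 10 NK cell markers 2 were called higher, against 21.5% of all rows. The part of these cells in the Lat values was not tested.

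The costimulatory receptors had the smallest mean differences of the 10 markers. Cd28 (NM_007642), the receptor of Cd80 and Cd86, read 6.32, 5.66, 5.73 and 6.06 in PBS and 6.13, 6.46, 5.39 and 5.55 in SP. The SP values enclosed the whole range of the PBS values, and the difference of -0.06 (95% confidence interval -0.64 to 0.53, adjusted p = 0.858 by limma) became 0.22 with centred arrays, 0.13 after another quantile normalization and 0.09 with array weights. Icos (NM_017480), the receptor of Icosl, read 5.80, 5.49, 5.71 and 5.40 in PBS and 5.94, 6.01, 5.56 and 5.73 in SP. Its 8 values spanned less than those of any other marker, and its difference was 0.21 (-0.09 to 0.51, adjusted p = 0.207). It was called with centred arrays (0.49, 0.00969) and with array weights (0.34, 0.0366).

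Thy1 (NM_009382) had an order of arrays like that of Cd3e. It read 6.52, 5.80, 5.89 and 5.83 in PBS and 6.87, 6.92, 5.40 and 6.08 in SP. PBS replicate 1 stood clear of the other PBS arrays, and SP replicate 3 was the lowest of all 8. The difference was 0.31 (95% confidence interval -0.47 to 1.10, adjusted p = 0.457 by limma), with a call only under array weights (0.69, 0.0382). Fibroblasts may also carry Thy1. The mean of 8 fibroblast markers was likewise highest in PBS replicate 1 among PBS arrays (8.44) and lowest of all arrays in SP replicate 3, but its highest SP array was replicate 4 (8.49), not replicates 1 and 2 (7.33 and 7.51). The part of fibroblasts in the Thy1 values was not tested.

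**Figure D2:**
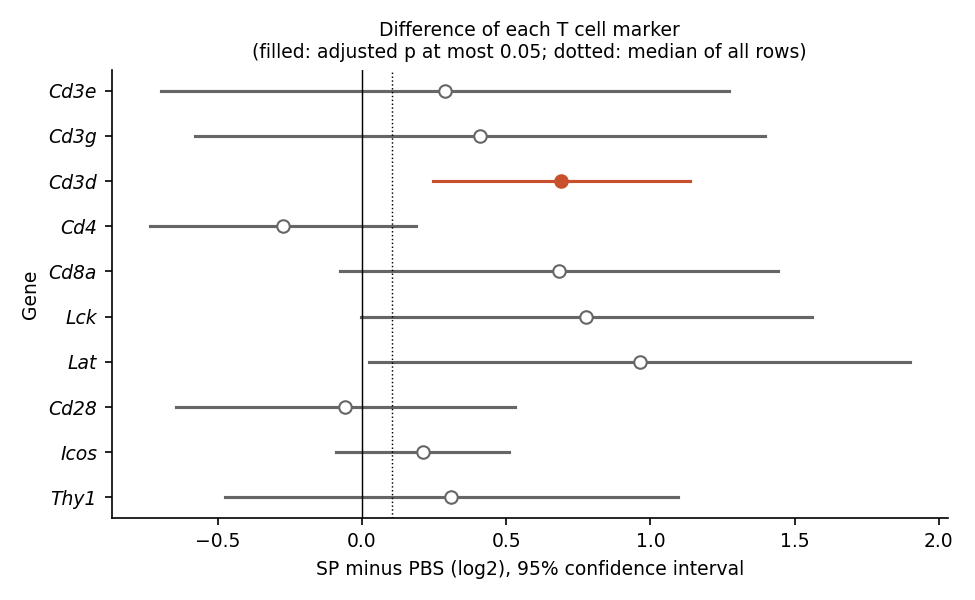
Difference SP minus PBS (log2) of each T cell marker with its 95% confidence interval by limma, where a filled point marks a called gene and the dotted line the median of all rows (0.10). Cd3d (0.69, interval 0.25 to 1.14) is the only filled point, and the interval of Lat (0.03 to 1.90) is the only other one that lies above 0.

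Likeness of the profiles was described by the root mean square distance between row-centred values over the 8 arrays, computed against all rows with a symbol for the 9 markers whose values spanned at least 1 log2 unit. It is given with no test. The nearest profile to Cd3e was Cd3g (0.12 log2 units), followed by Thy1 (0.15) and Map4k1 (0.25), a kinase of blood cells. Cd3g was also near Ctsw (0.19), a protease known from cytotoxic lymphocytes. Cd3d had none of the T cell markers among its nearest 3 profiles, which were Zfp292 (0.07), Il1f5 (0.10) and Fzd9 (0.10).

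The nearest profiles to Cd8a were Tbx21 (0.15), a transcription factor of type 1 lymphocytes, Lck (0.15) and Prdm9 (0.15). For Lck they were Cd8a (0.15), Il2rb (0.18), a subunit of the interleukin 2 and 15 receptors, and the chemokine receptor Ccr9 (0.18). Lat was nearest to Cd8b1 (0.17), which encodes the other chain of CD8, then to Mtmr7 (0.18) and H2-Oa (0.18). Cd4 had a different set, Ptprcap (0.07), Tnfrsf13c (0.14) and Cxcr5 (0.15), of which Tnfrsf13c encodes a survival receptor of B cells and Cxcr5 a receptor for entry into B cell follicles. Cd28 was nearest to Zfp65 (0.14), Clec2i (0.16) and Map4k1 (0.16), and Thy1 to Cd3e (0.15), Gpr137b (0.19) and Ccnb2 (0.19).

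**Figure D3:**
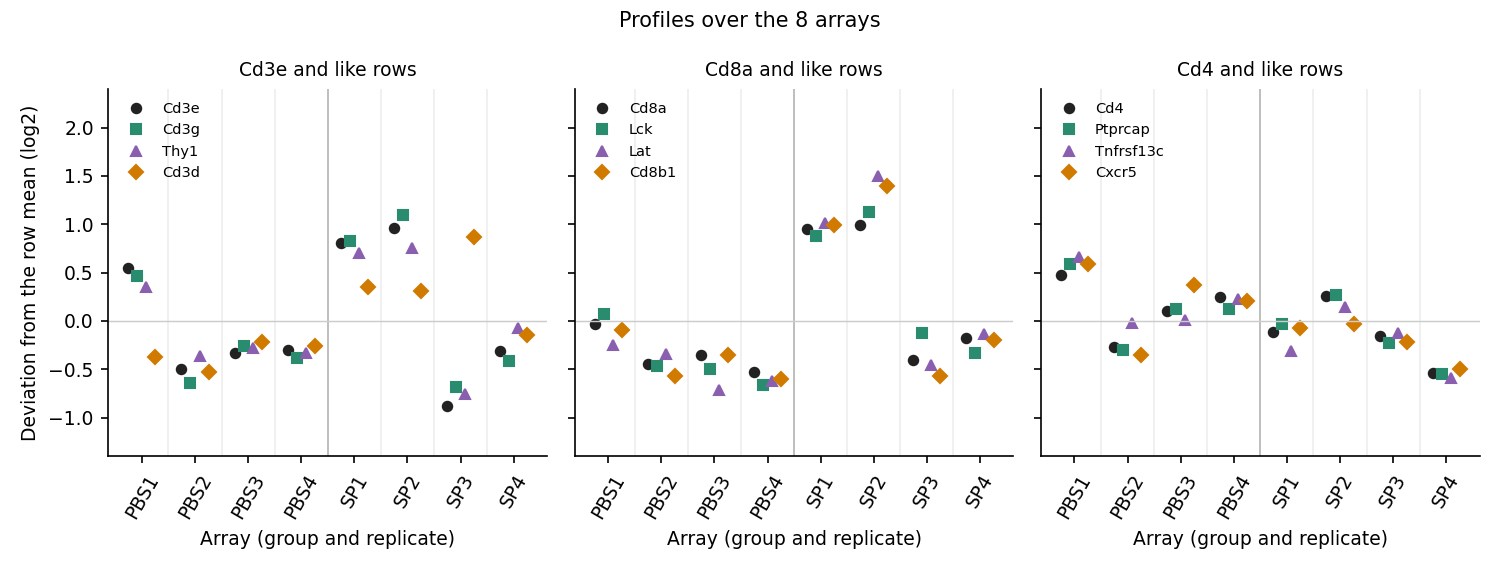
Deviation of each array from the row mean (log2) for Cd3e with Cd3g, Thy1 and Cd3d, for Cd8a with Lck, Lat and Cd8b1, and for Cd4 with its 3 nearest profiles, over 4 PBS and 4 SP arrays. Cd3e, Cd3g and Thy1 lie close together on every array, and Cd3d lies far above them in SP replicate 3 and below them in PBS replicate 1 and SP replicates 1 and 2, and the Cd8a panel is high in SP replicates 1 and 2 only.

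Markers of other lymphocytes varied over the arrays in a similar way. The mean of 10 NK cell markers was 6.27 in both SP replicates 1 and 2, against 5.70 and 5.62 in SP replicates 3 and 4, and between 5.37 and 5.76 in PBS, where replicate 1 was highest. Of these 10 genes 2 were called, both higher in SP, against 21.5% of all rows called higher. They were Klrk1 (2.20-fold), an activating receptor also present on CD8 T cells, and Gzmb (2.78-fold), a cytotoxic granule protease. Nkg7, a granule membrane protein of cytotoxic cells, read 9.20 and 9.47 in SP replicates 1 and 2 and 7.09 and 7.47 in SP replicates 3 and 4, and was not called. The mean of 10 B cell markers was 6.83 and 7.08 in SP replicates 1 and 2 and 6.05 and 6.31 in SP replicates 3 and 4, but it lay between 7.44 and 8.28 in PBS, again highest in replicate 1. Of these B cell markers, 8 were called lower and 0 higher, against 22.6% and 21.5% of all rows. Among the 8 was Ms4a1 (4.45-fold), which encodes the surface protein CD20. T cell and B cell markers thus shared their highest arrays in each group, whereas most B cell markers fell between the groups. SP replicate 3 also had the lowest mean of all SP arrays for 9 markers of monocytes and macrophages (8.01) and for 8 of endothelium (8.97). The mean of the neutrophil markers was highest in SP replicate 3 (12.72), with 12.12 and 11.97 in SP replicates 1 and 2. That rank over all arrays rested on Camp, a granule peptide gene at 10.94 in SP replicate 3 and 7.07 to 8.36 elsewhere. Without it the mean of the other 9 was 12.91 in SP replicate 3, still the highest SP array, against 13.01 in PBS replicate 3. The part that other cells had in the values of the T cell markers was not tested.

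**Figure D4:**
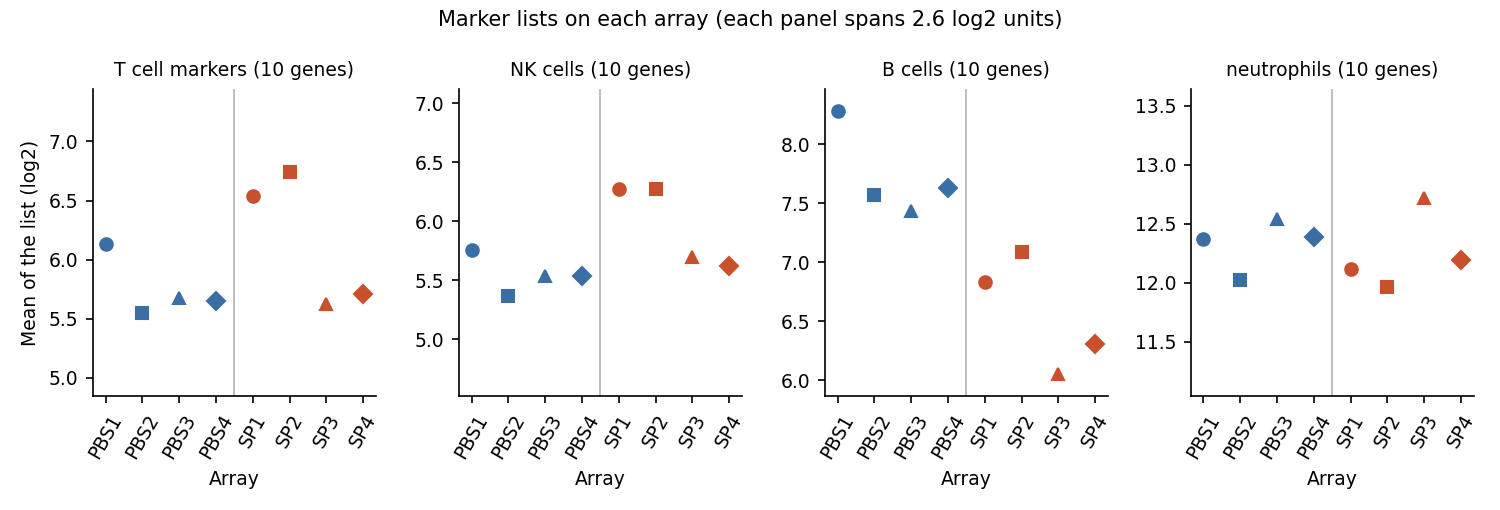
Mean RMA expression (log2) of 10 T cell, 10 NK cell, 10 B cell and 10 neutrophil markers on each array, PBS in blue and SP in red, with the same span of the vertical axis in each panel. In the 3 lymphocyte panels SP replicates 1 and 2 are the highest SP arrays and PBS replicate 1 the highest PBS array, and in the neutrophil panel SP replicate 3 is the highest at 12.72, a rank among all arrays that rests on Camp.

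Other genes of T cell biology were compared in 6 lists with 92 genes, of which 84 had a row. Of these, 33 were called higher and 11 lower in SP and 40 were not called, with a median difference of 0.20. All SP values lay above all PBS values in 29 and below them in 9, against 27.2% and 21.8% of all rows. Genes of the first list carry the signal of the T cell receptor inside the cell, and 11 of 19 were called higher and 1 lower, against 21.5% and 22.6% of all rows. Among those that rose were Rhoh (9.66-fold), a GTPase of blood cells, and Vav1 (3.15-fold), an exchange factor that neutrophils and other myeloid cells also use. Rhoh was at 7.69 ± 0.79 in PBS and 10.96 ± 0.14 in SP (SD, n = 4, adjusted p = 1.63e-04 by limma), with SP replicate 3 the highest at 11.10. Cd3d was likewise highest in SP replicate 3, whereas Cd3e and Cd3g were lowest there. Cd247, the CD3 zeta chain, was higher by 0.62 log2 units (1.54-fold, adjusted p = 0.0185), at 5.76 and 5.89 in SP replicates 1 and 2 and 5.22 and 5.31 in replicates 3 and 4. Zap70, the kinase between Lck and Lat, was not called (-0.21, 95% confidence interval -0.54 to 0.11, adjusted p = 0.238). Plcg1, a phospholipase that many cell types express, was 3.45-fold lower. Of 8 endothelial markers 6 were called lower, against 22.6% of all rows.

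Genes of T cell identity went both ways. Of 18 genes, 2 were called higher and 6 lower, against 21.5% and 22.6% of all rows, with a median difference of -0.11 that turned to 0.17 with centred arrays. Il7r, the interleukin 7 receptor alpha chain, was 6.81-fold higher, and Cd5, a surface inhibitor of receptor signalling, 2.37-fold. Cd5 read 7.20 and 7.67 in SP replicates 1 and 2 and 6.02 and 6.29 in SP replicates 3 and 4. Its PBS values were 5.36 to 5.83. Lower were Cd2 (3.02-fold), an adhesion molecule of T and NK cells, Cd7 (2.72-fold) and Ikzf3 (2.15-fold), a transcription factor of lymphocytes that B cells also use. Cd2 read 8.71, 7.71, 7.71 and 7.75 in PBS and 6.73, 7.10, 5.87 and 5.80 in SP, so PBS replicate 1 and SP replicates 1 and 2 were again the highest of their groups although the gene fell. Cd8b1, the partner of Cd8a, read 7.27 and 7.68 in SP replicates 1 and 2 and 5.71 and 6.09 in SP replicates 3 and 4, against 5.68 to 6.18 in PBS, and was not called (0.81, adjusted p = 0.135).

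Of 17 activation and checkpoint genes 9 were called higher and 1, Btla, lower, against 21.5% and 22.6% of all rows. Tnfrsf9, a costimulatory receptor, was at 5.21 ± 0.14 in PBS and 9.50 ± 0.23 in SP (SD, n = 4), 19.6-fold higher (adjusted p = 6.10e-07 by limma). Havcr2 was 8.04-fold and Cd69 7.13-fold higher, and both are also known from myeloid cells. These 3 genes were named by a rule that required no overlap between groups. Cd69 was highest in SP replicate 3 (13.16). Ctla4, the inhibitory relative of Cd28, was higher by 0.53 (adjusted p = 0.0424). Il2, the growth factor released by activated T cells, read from 4.43 to 4.98 over all arrays and was not called (adjusted p = 0.143).

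Of 15 genes of helper and regulatory subsets, 5 were called higher and 1 lower, against 21.5% and 22.6% of all rows. Of these 5, the cytokine genes Il17a, Il17f and Il22 had differences of 0.27, 0.26 and 0.33 and group means from 4.13 to 5.02, near those of the Y-linked genes. Maf, a transcription factor that macrophages also express, was 3.02-fold and Cxcr3, a chemokine receptor of type 1 T cells, 2.08-fold higher. Cxcr3 read 6.89 and 7.13 in SP replicates 1 and 2 and 5.85 and 6.02 in SP replicates 3 and 4. Its PBS values were 5.21 to 5.69. Foxp3, which defines regulatory T cells, stayed between 4.45 and 4.77 on all arrays (adjusted p = 0.0587). Of 5 genes of gamma delta T cells with a row, 0 were called higher and 2 lower, Sox13 (2.36-fold) and Blk (2.20-fold), the latter a kinase that B cells also express. Not called were Il23r (0.72, adjusted p = 0.0968 by limma), Cd163l1 (0.14) and Zbtb16 (-0.56). All SP values of Il23r lay above its PBS values, an arrangement found in 27.2% of all rows. Trdc, Trgc1 and Scart1 of this list had no row.

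The list labelled costimulatory ligands also held the receptor Cd40 and the inhibitory ligands Cd274 and Pdcd1lg2. Of its 10 genes 6 were called higher and 0 lower, against 21.5% and 22.6% of all rows, with a median of 1.81 log2 units. Of the genes for their binding partners, Ctla4, Pdcd1, Tnfrsf4 (2.08-fold) and Tnfrsf9 were called higher. Cd28, Icos, Cd27, Tnfrsf18 and the Cd40 ligand gene Cd40lg were not called. Icosl, the ligand of Icos, was at 8.36 ± 0.64 in PBS and 10.63 ± 0.34 in SP (SD, n = 4), a 4.82-fold rise (adjusted p = 6.84e-04 by limma). All its SP values lay above all PBS values, an arrangement found in 27.2% of all rows. Of the ligands of Cd28, Cd86 rose 2.69-fold (adjusted p = 0.0105), and Cd80 lay at 11.36 ± 0.72 in PBS and 12.05 ± 0.12 in SP without a call (0.69, adjusted p = 0.103). Cd274 and Pdcd1lg2, ligands of the checkpoint receptor PD-1, were 14.2-fold and 14.1-fold higher, and Cd40 6.27-fold. The receptor gene Pdcd1 differed by 0.49 (adjusted p = 0.00104), with means of 4.56 ± 0.07 in PBS and 5.05 ± 0.08 in SP (SD, n = 4), close to the level of the Y-linked genes.

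**Figure D5:**
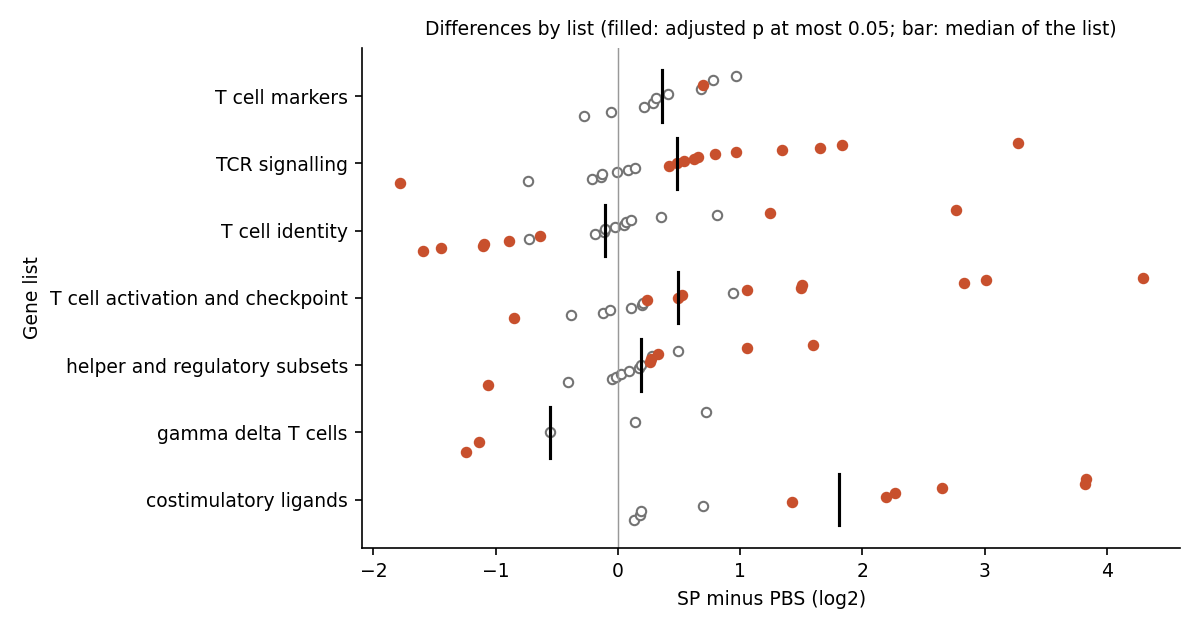
Difference SP minus PBS (log2) of each gene of the T cell markers and of the 6 lists of related genes, with filled points for called genes and a bar at the median of each list. The T cell markers have 1 filled point of 10 and a median of 0.36. The list labelled costimulatory ligands has 6 of 10 and a median of 1.81. It also holds the receptor Cd40 and the PD-1 ligands Cd274 and Pdcd1lg2.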

How the data were processed

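Expression was measured on Affymetrix Mouse Gene 1.1 ST arrays in 8 samples, 4 PBS and 4 SP, grouped by their titles. The authors deposited log2 values, made by RMA after a correction of probe values for sequence and GC, in which arrays were quantile normalized and each gene's probes summarised by median polish, and the submitters' processing notes name Affymetrix Expression Console, RMA and Partek. Precision is limited by the number of arrays. A genome build for the probes is not given in the sources used here. Rows were matched to symbols through RefSeq transcripts of GRCm38.p6, without versions, and 80.9% of 24625 rows received a symbol. Where a symbol had several rows, the row with the highest mean was used.

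SP was compared with PBS by limma (version 3.58.1, R 4.3.3), with functions lmFit and eBayes, no covariate, a two-sided test and p-values adjusted by Benjamini-Hochberg across the table. The methods of the study used a one-way ANOVA, taken here as an alternative and called the methods' t-test. Within-array differences of 6 pairs of markers were compared by exact permutation. The code was tested on simulated data. The markers and lists were chosen with earlier results of these data known.

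The rule for named genes took the 10 markers, of each related list the 3 largest rises and falls among genes called at 2-fold with no overlap, of each list of other cells the 2 brightest genes and up to 4 called at 2-fold with no overlap, the partners Il2, Ctla4, Cd80, Cd86 and Icosl, and the 3 nearest profiles of each marker. Few of the genes of other cells are printed, and some genes that the rule took are not reported here. Zap70, Cd247, Cd8b1, Pdcd1, Btla, Foxp3, Tpsb2, Tubb1, Camp, Tnfrsf4, Il17a, Il17f, Il22 and the Y-linked genes were named after their values were seen. So were Cd27, Tnfrsf18, Cd40lg, Il23r, Cd163l1 and Zbtb16. Alternatives were the methods' t-test, a robust trended prior, blocking on the replicate number, array weights, arrays centred on their medians, a further quantile normalization, a filter on dim rows (mean under that of the median row), 1 row per symbol, and the omission of each sample in turn. The neutrophil mean without Camp was added after seeing the data. No marker had several rows, so taking the row with the lowest mean gave the same rows.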

Additional observations from a re-analysis of the deposited data

Results flagged for a closer look

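Of 20 groups of 4 values (10 markers in PBS and in SP), 1 held a value far from the others. Thy1 read 6.52 in PBS replicate 1, against 5.80 to 5.89 in the other PBS arrays, and the gap took up 0.875 of the range of the group, above the critical value of Dixon's ratio for 4 samples. Chance gives about 1 such group in 20. PBS replicate 1 was also the highest PBS array in 9 of the 10 markers.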

How the results depend on the processing

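The number of T cell markers called depended on the processing, while each call that was made was higher in SP. Against 1 in the reported fit, it was 1 with the methods' t-test, a robust prior or 1 row per symbol, 3 with the replicate number as a block, 6 with array weights, 5 with centred arrays, 2 after another quantile normalization, and 0 of the 4 markers left after dim rows were left out. Leaving out a sample gave 0 to 3, with 0 without PBS replicate 1 or 2, 3 without SP replicate 3 and 2 without SP replicate 4. With the replicate block, Lck (0.78, adjusted p = 0.0455) and Lat (0.96, 0.0440) were called besides Cd3d. The labels do not say whether the replicate numbers pair the samples. The deviations of arrays with the same number correlated at 0.02, 0.03, 0.35 and -0.27, which cannot settle it. Calls over all rows went from 10860 (48.9% higher) to 18255 (77.9% higher) with centred arrays, which moves the median of all rows from 0.10 to 0.38. Differences turned positive for Cd28 with array weights (0.0920), centred arrays (0.22) and another quantile normalization (0.13), and ranged from -0.25 to 0.11 when a sample was left out. Cd4 turned to 0.0067 with centred arrays. The median difference of the markers stayed positive, from 0.13 to 0.62 without a sample and from 0.36 to 0.70 otherwise. The change of Cd3e minus Cd3d ranged from -0.69 to 0.11 and that of Cd3d minus Cd3g from -0.19 to 0.59 when a sample was left out, and each changed sign without SP replicate 3 (0.11 and -0.19). Calls among the 84 related genes were 44, and 32 to 61 over the alternatives. The cause of these differences was not tested. Values near the level of Y-linked genes limit what can be seen for Cd3d. The filter on dim rows left Cd3d untested.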

Other observations

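Icos, Thy1 and Il7r are also known from group 2 innate lymphoid cells. Of 9 markers of these cells 1 was called higher and 3 lower in SP, against 21.5% and 22.6% of all rows. The receptor Il1rl1 had a difference of -0.08 (limma, adjusted p = 0.479) and the cytokine gene Il13 one of 0.16 (0.102), both log2 and not called. The 1 higher gene was Arg1, which macrophages also express, from 4.79 to 9.42. Some dendritic cells carry Cd8a or Cd4. Of 10 dendritic cell markers, 2 were called higher and 2 lower, against the same shares of all rows. The higher genes were Itgae (1.10, adjusted p = 0.0174 by limma) and Batf3 (0.61, 0.00156), and the lower ones Cd209a (-1.98) and Zbtb46 (-0.40). Itgae, which some T cells also carry, read 6.67 and 6.84 in SP replicates 1 and 2 and 5.57 and 5.83 in SP replicates 3 and 4. By flow cytometry the study also reported more of its protein, CD103, on lung neutrophils of SP mice than of PBS mice. Among the 6 not called were Xcr1 (-0.13) and Siglech (-0.04). The part of dendritic cells in the Cd8a and Cd4 values was not tested. These genes were chosen after their values were seen.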
